A study of Homo sapiens with 4 samples.

Results

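The DNAJ genes encode the HSP40 or J-domain co-chaperones, and their RNA levels were examined in 2 established thyroid carcinoma cell lines at 40 °C and 37 °C. Members were all protein-coding genes of GENCODE 29 whose symbol is DNAJA, DNAJB or DNAJC followed by a digit. This gave 45 of 58884 gene IDs, with 4 of class A, 12 of class B and 29 of class C by symbol alone. Another 25 genes with such symbols, mostly pseudogenes and antisense genes, are not protein-coding and were left out. The study compared 4 libraries, B-CPAP at 40 °C, B-CPAP at 37 °C, TPC-1 at 40 °C and TPC-1 at 37 °C, with 1 library each, to ask how heat alters thyroid cancer cells. All 4 came from cells in T25 flasks; the labels name no genotype, clone or drug. The labels give the exposure as 24 h, 20 min or 15 min in different fields, so its length is not known here.

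J-domain proteins are the partners that make HSP70 chaperones work. The J domain, through a conserved histidine, proline and aspartate, makes HSP70 split ATP and close on its client, while other parts of the protein choose the client or the place in the cell. Class A proteins keep the zinc-binding layout of bacterial DnaJ, class B proteins have a glycine- and phenylalanine-rich stretch, and class C proteins share little beyond the J domain and often have a single task, such as protein import, splicing or vesicle traffic. In heat-stressed cells the heat shock factor HSF1 raises some cytosolic members, DNAJB1 above all, whereas several members of the endoplasmic reticulum (ER) belong to the unfolded protein response.

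The estimated depth was 20704722 to 24466576 reads a library, and mitochondrially encoded genes took 16.8 to 23.9% of the values, which are TPM, transcripts scaled by gene length and to a fixed library total. Of the thyroid markers, PAX8 stood at 98.9 to 284 TPM in all libraries, NKX2-1 at 7.90 and 8.60 TPM in B-CPAP and at 0 in both TPC-1 libraries, and SLC5A5 was listed at 0 in all 4. The summed level of the leukocyte markers was at most 0.40 TPM and that of the endothelial markers at most 1.64 TPM. The epithelial markers summed to 1205 TPM at 40 °C, against 1560 TPM at 37 °C, in B-CPAP and to 381 TPM, against 457 TPM, in TPC-1. KRT7, KRT8 and KRT18 held nearly all of the sum in B-CPAP, and KRT8 and KRT18 in TPC-1. KRT7 stood at 589 TPM, against 754 TPM, in B-CPAP and at 5.15 TPM, against 4.84 TPM, in TPC-1. In all libraries CDH1 was at most 0.044 TPM, KRT19 at most 1.42 TPM and EPCAM at most 1.99 TPM. The fibroblast markers summed to 38.2 and 29.7 TPM in B-CPAP and to 9.58 and 9.17 TPM in TPC-1, with LUM and COL3A1 at 0 in TPC-1. COL1A1 stood at 10.3 and 10.4 TPM in B-CPAP and at 2.82 and 2.95 TPM in TPC-1. PDGFRB went the other way, at 4.65 and 4.15 TPM in B-CPAP and at 6.72 and 6.19 TPM in TPC-1. The part of these markers in the results below was not tested, and in bulk libraries a change in the share of cells and a change in RNA per cell cannot be told apart.

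Of the 45 members, 37 had a mean of at least 1 TPM over the 4 libraries and were tested. The other 8 had low values in every library. DNAJB8, DNAJC5G and the read-through gene DNAJC25-GNG10 were listed at 0 throughout. Of DNAJC25-GNG10's exonic bases 75.3% overlap GNG10 and 24.7% DNAJC25, all on the same strand. Its 0 therefore does not show that its RNA was absent. DNAJB7, DNAJB13 and DNAJC5B stayed at or below 0.165 TPM and, like DNAJB8 and DNAJC5G, are known mainly from testis or cilia. DNAJA4 reached 0.54 TPM in B-CPAP at 40 °C, against 0.18 TPM at 37 °C, from 25 and 9 reads, and had 1 read in each TPC-1 library. DNAJC28 stood at 1.21 and 0.54 TPM in B-CPAP at 40 °C and 37 °C, and at 1.60 and 0.53 TPM in TPC-1, from 8 to 23 reads.

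**Figure D1:**
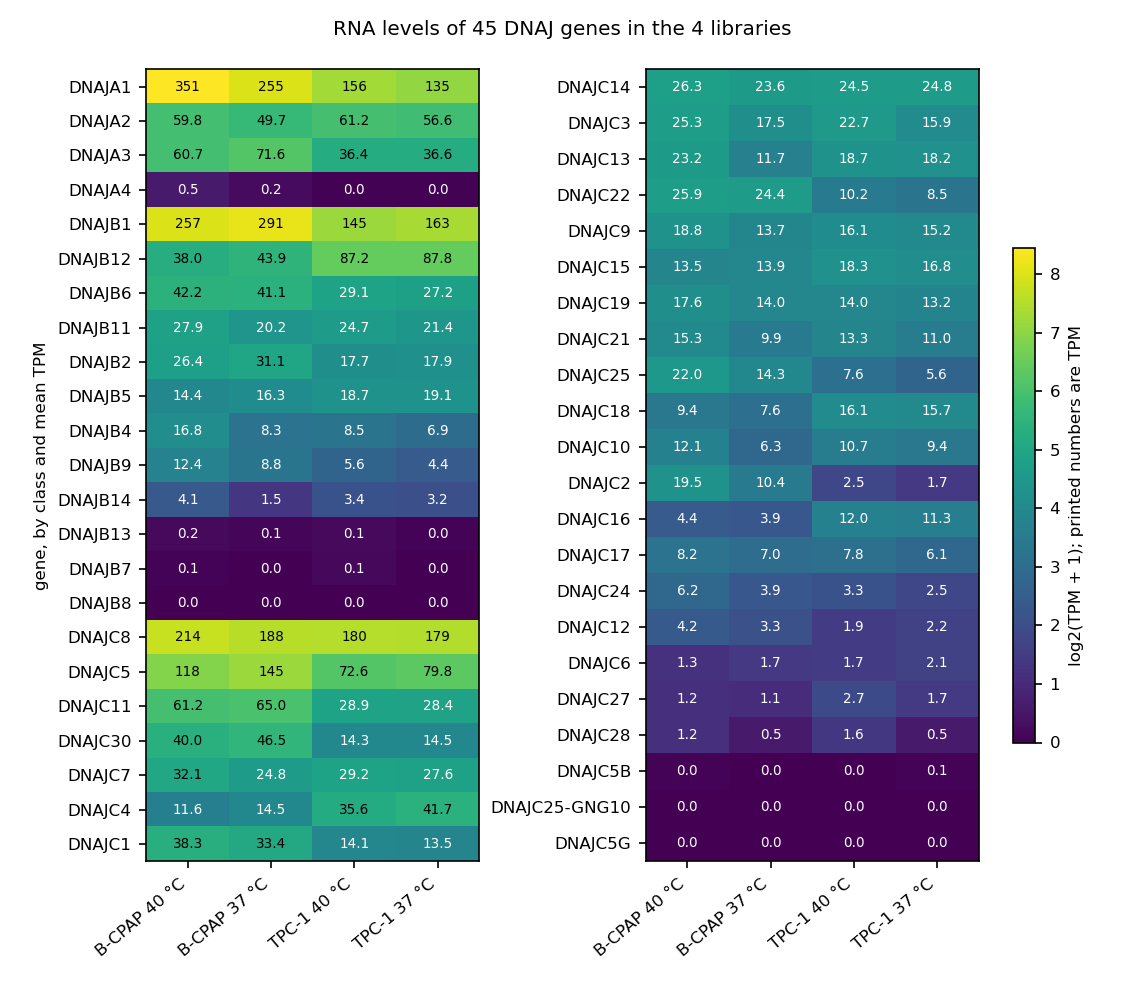
TPM of all 45 DNAJ genes (rows, by class and mean level) in the 4 libraries (columns, 1 library each); colour is log2(TPM + 1) and the printed number is TPM. DNAJA1, DNAJB1 and DNAJC8 have the brightest rows, and 8 genes are dark in every library.

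The family summed to 1682 TPM in B-CPAP at 40 °C, against 1545 TPM at 37 °C, and to 1174 TPM in TPC-1 at 40 °C, against 1146 TPM at 37 °C. DNAJA1, DNAJB1, DNAJC8 and DNAJC5 made up 55.9% and 56.9% of this sum in B-CPAP at 40 °C and 37 °C, and 47.1% and 48.6% in TPC-1. Members placed in the cytosol or nucleus held 64.3% of the family's TPM in B-CPAP at 40 °C, mitochondrial members 12.2% and ER members 11.5%; in TPC-1 at 40 °C the shares were 58.6%, 12.6% and 17.4%. DNAJB1 was the top member at 37 °C in B-CPAP and DNAJA1 at 40 °C, while in TPC-1 DNAJC8 led at both temperatures.

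At 40 °C, 26 of the 37 tested members were higher in the B-CPAP library (58.2% of all 14912 tested genes were) and 26 in the TPC-1 library (54.3%), and 11 were lower in each (40.1% and 42.5%). In both lines 24 were higher (41.6% of all genes) and 9 lower (27.1%). The median log2(TPM + 1) difference of the members was 0.20 in B-CPAP, where that of all tested genes was 0.09, and 0.08 in TPC-1, where it was 0.03. These signs depend on scaling. With each library centred on its median, a step that lowers every difference by 0.185 in B-CPAP and 0.0933 in TPC-1, 20 and 16 members were higher and the medians were 0.01 and -0.01, where those of all genes were -0.10 and -0.07; adjusted for the GC content of the exons, 17 and 18 were higher and the medians were -0.02 and -0.0088, where those of all genes were -0.02 and -0.03.

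Few differences were large. On the log2(TPM + 1) scale 5 members stood 1.5-fold or more higher at 40 °C in B-CPAP (12.6% of all genes did) and 0 in TPC-1 (5.4%), and 0 members stood 1.5-fold lower in B-CPAP (2.97%) or TPC-1 (2.49%). At 2-fold, 1 member stood higher in B-CPAP (2.78%) and 0 in TPC-1 (2.25%). The 5 were DNAJB14, DNAJB4, DNAJC13, DNAJC10 and DNAJC2, and 0 of them passed this size once adjusted for GC content. Regardless of sign, 32 of 37 members differed more between temperatures in B-CPAP than in TPC-1 (69.0% of all genes did). Over both lines limma, with the line as a block, called 0 of 37 members at an adjusted p of 0.05 (0.0% of all genes) and found 7 with an unadjusted p under 0.05 (19.5%). The smallest adjusted p of a member was 0.218, for DNAJC3. When protein-coding genes alone were fitted, limma called 4 members higher at 40 °C (7.44% of genes), DNAJC3, DNAJA1, DNAJC2 and DNAJB4, and 0 lower. Among genes with a mean of at least 5 TPM it called 2 higher (5.02% of genes), DNAJA1 and DNAJC3. With 1 library per line and temperature, these p-values set the effect against the gap between the 2 lines' differences, with the variance pooled over genes. They hold no spread between cultures.

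**Figure D2:**
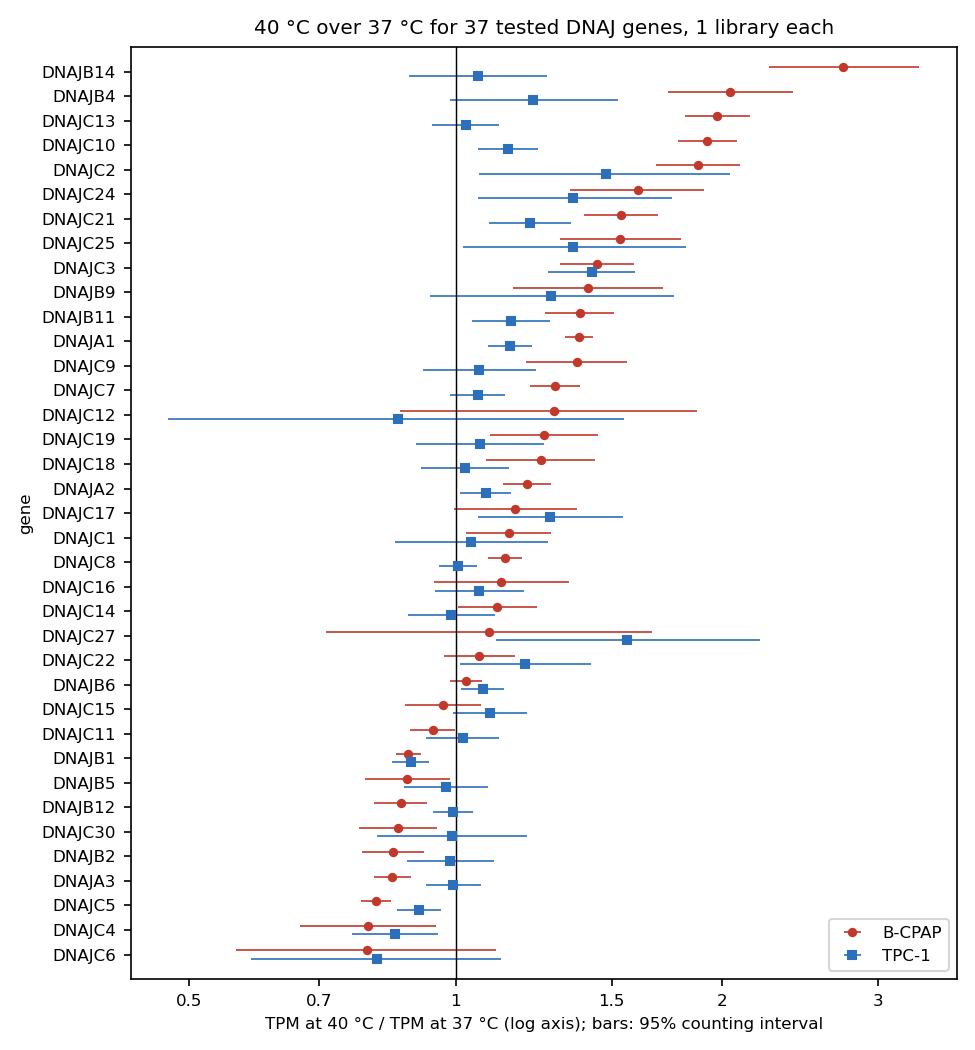
TPM at 40 °C over TPM at 37 °C (x, log axis) for the 37 tested DNAJ genes (y, ordered by the B-CPAP ratio), with B-CPAP as circles, TPC-1 as squares and 95% exact counting intervals as bars. DNAJB14 has the highest B-CPAP ratio, 2.74, beside 1.06 in TPC-1, and DNAJB1, DNAJC5 and DNAJC4 lie below 1 in both lines.

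Among the cytosolic and nuclear members the 2 most abundant went opposite ways. DNAJB1 (ENSG00000132002, GRCh38 chromosome 19, 14514770 to 14529770), the classical heat-inducible HSP40, stood at 257 TPM at 40 °C, against 291 TPM at 37 °C, in B-CPAP, and at 145 TPM, against 163 TPM, in TPC-1. The TPM ratio of 40 °C over 37 °C was 0.883 in B-CPAP (95% exact interval 0.855 to 0.913) and 0.890 in TPC-1 (0.848 to 0.934). These intervals cover counting error in the 2 libraries only. The log2(TPM + 1) differences of DNAJB1 were -0.18 and -0.17, or -0.03 and -0.12 once adjusted for GC content. They were negative under each of the 4 other scalings run. The exons of DNAJB1 have a GC content of 56.2% and those of DNAJA1 of 42.0%. DNAJA1 (ENSG00000086061, chromosome 9, 33025211 to 33039907), the main class A protein of the cytosol, stood at 351 TPM, against 255 TPM, in B-CPAP and at 156 TPM, against 135 TPM, in TPC-1. Its ratios were 1.38 (1.33 to 1.43) and 1.15 (1.09 to 1.22), and its differences on the log2(TPM + 1) scale were 0.46 and 0.20, or 0.08 and 0.03 once adjusted for GC content. In the limma fit over both lines the difference was 0.33 ± 0.09 (SE) for DNAJA1, higher in 2 of 2 lines, with an adjusted p of 0.219, and -0.17 ± 0.07 for DNAJB1, lower in 2 of 2 lines, with an adjusted p of 0.266.

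The binding motif of HSF1 is a row of GAA units in alternating orientation, and it was looked for in the RefSeq promoters (GRCh38.p14), each 250 bases before to 50 bases after a start. A pair of adjoining units, GAANNTTC or TTCNNGAA, which each read the same on both strands, occurred in 9 of 53 member promoters, which belong to 8 of the 41 members that had one, and in 4737 of all 35116 promoters, or 13.5%. A row of 3 units, which is GAANNTTC followed by NNGAA, or TTCNNGAA followed by NNTTC on the other strand, contains both pairs; it occurred in 2 of the 53 member promoters, for DNAJA1 and DNAJB6, and in 0.49% of all promoters. The ER stress element, CCAAT and CCACG with 9 bases of any kind between them, was searched on both strands and occurred in 0 member promoters and in 0.0769% of all. The stretches of 5 cytosolic members are shown, picked among the 8 partly because they differ in what their RNA did. The other members with a pair, DNAJB7, DNAJC6 and DNAJC15, are not shown. Capitals mark the motif, and the last number is the position of the first base counted from the start.
DNAJB1, chr19:14518428-14518487, minus strand, -90: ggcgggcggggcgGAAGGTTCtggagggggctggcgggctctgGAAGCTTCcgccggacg
DNAJA1, chr9:33025267-33025296, plus strand, -6: cgccgggcgGAACTTTCCAGAAcgctcggt
DNAJB4, chr1:78004829-78004858, plus strand, -110: tagcatttgctgTTCTAGAAagtacagaga
DNAJB6, chr7:157336864-157336895, plus strand, -140: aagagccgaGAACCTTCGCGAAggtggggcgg
DNAJA4, chr15:78264462-78264521, plus strand, -100: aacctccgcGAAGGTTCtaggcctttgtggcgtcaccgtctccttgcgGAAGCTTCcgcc

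At 40 °C the 5 members with these stretches did not move together. They were picked partly for that, so nothing about carriers of the motif follows from it. Of the carriers not shown, DNAJC6 had ratios of 0.794 in B-CPAP and 0.814 in TPC-1. DNAJC15 had ratios of 0.967 and 1.09, and DNAJB7 was not tested. DNAJB1 was lower and DNAJA1 higher in both lines, and DNAJA4, at a very low level, had a ratio of 2.96 in B-CPAP (1.34 to 7.21). DNAJB4, a close relative of DNAJB1, stood at 16.8 TPM, against 8.25 TPM, in B-CPAP and at 8.46 TPM, against 6.92 TPM, in TPC-1. The ratio was 2.04 (1.74 to 2.40) in B-CPAP and 1.22 (0.986 to 1.53) in TPC-1, so the counting interval included 1 in TPC-1. DNAJB6, which holds back aggregation of polyglutamine proteins, stood at 42.2 TPM, against 41.1 TPM, in B-CPAP and at 29.1 TPM, against 27.2 TPM, in TPC-1, with ratios of 1.03 (0.985 to 1.07) and 1.07 (1.01 to 1.13). A match is a description of letters, and occupancy by HSF1 was not measured.

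The other class A and B members of the cytosol were DNAJA2, DNAJB2 and DNAJB5. DNAJA2, which works beside DNAJA1, stood at 59.8 TPM, against 49.7 TPM, in B-CPAP and at 61.2 TPM, against 56.6 TPM, in TPC-1. Its ratios were 1.20 (1.13 to 1.28) and 1.08 (1.01 to 1.16), and its log2 differences of 0.26 and 0.11 turned to -0.16 and -0.07 once adjusted for GC content. DNAJB2, which carries ubiquitin-binding motifs, stood at 26.4 TPM, against 31.1 TPM, in B-CPAP and at 17.7 TPM, against 17.9 TPM, in TPC-1. DNAJB5, another relative of DNAJB1, stood at 14.4 TPM, against 16.3 TPM, in B-CPAP and at 18.7 TPM, against 19.1 TPM, in TPC-1. The ratio of DNAJB2 was 0.849 (0.783 to 0.920) in B-CPAP and 0.986 (0.881 to 1.10) in TPC-1, that of DNAJB5 0.882 (0.790 to 0.985) and 0.975 (0.873 to 1.09), so for both the interval lay below 1 in B-CPAP alone.

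DNAJC2, DNAJC21 and DNAJC24 are class C members of the cytosol or nucleus. DNAJC2 (ENSG00000105821, chromosome 7, 103312474 to 103344873), which sits on the ribosome with HSPA14 and meets the growing chain, stood at 19.5 TPM, against 10.4 TPM, in B-CPAP and at 2.48 TPM, against 1.68 TPM, in TPC-1. Its ratios were 1.88 (1.68 to 2.10) and 1.48 (1.06 to 2.04), and the TPC-1 ratio rests on 94 and 67 reads. DNAJC21, which acts in the making of the large ribosomal subunit, had ratios of 1.54 (1.39 to 1.69) and 1.21 (1.09 to 1.35), and DNAJC24, which acts in making the diphthamide of elongation factor 2, of 1.61 (1.35 to 1.91) and 1.36 (1.06 to 1.76). In limma the adjusted p was 0.226 for DNAJC2, 0.242 for DNAJC21 and 0.270 for DNAJC24. All 3 have a GC content of 36.8 to 41.0%. Once adjusted for it, the differences in B-CPAP and TPC-1 were 0.35 and 0.17 for DNAJC2, 0.15 and 0.07 for DNAJC21, and -0.04 and 0.07 for DNAJC24, whose sign turned in B-CPAP.

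The other class C members of the cytosol or nucleus were DNAJC7, DNAJC8, DNAJC9 and DNAJC17. DNAJC8, a factor tied to the spliceosome, stood at 214 TPM, against 188 TPM, in B-CPAP and at 180.2 TPM, against 179 TPM, in TPC-1. DNAJC17, which also acts in splicing, stood at 8.23 TPM, against 7.05 TPM, in B-CPAP and at 7.78 TPM, against 6.08 TPM, in TPC-1. Its ratios were 1.17 (0.994 to 1.37) and 1.28 (1.06 to 1.54), and with a GC content of 55.9% it was 1 of 2 members above 50% GC that stood higher in B-CPAP. Of its exonic bases 20.4% overlap GCHFR, which had a mean of 0.34 TPM, on the opposite strand. DNAJC7, which carries TPR repeats and binds both HSP70 and HSP90, stood at 32.1 TPM, against 24.8 TPM, in B-CPAP and at 29.2 TPM, against 27.6 TPM, in TPC-1. The histone chaperone DNAJC9 had ratios of 1.37 (1.20 to 1.56) and 1.06 (0.918 to 1.23), and 24.0% of its exonic bases overlap FAM149B1 on the opposite strand.

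Of the 10 members placed in the ER, 9 were higher at 40 °C in each line (58.2% of all genes were in B-CPAP and 54.3% in TPC-1). DNAJC14, an ER-associated protein left out of this group, had ratios of 1.11 in B-CPAP and 0.989 in TPC-1. The median log2(TPM + 1) difference of the 10 was 0.45 in B-CPAP and 0.13 in TPC-1. With libraries centred on the median 8 and 5 were higher, and adjusted for GC content 7 and 5, with medians of 0.06 and 0.0084, where those of all genes were -0.02 and -0.03. DNAJC3 (ENSG00000102580, chromosome 13, 95677139 to 95794989), a BiP co-chaperone of the ER lumen that is also known as an inhibitor of PERK, stood at 25.3 TPM, against 17.5 TPM, in B-CPAP and at 22.7 TPM, against 15.9 TPM, in TPC-1. The ratio was 1.44 (1.31 to 1.59) in B-CPAP and 1.42 (1.27 to 1.59) in TPC-1, so that both lines differed by a similar factor. Its limma difference was 0.49 ± 0.11 (SE), higher in 2 of 2 lines, with an adjusted p of 0.218. Once adjusted for GC content, its difference was 0.03 in B-CPAP and 0.28 in TPC-1.

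DNAJB9 and DNAJB11 are further BiP partners. DNAJB9, an unfolded protein response gene that holds IRE1 in check, stood at 12.4 TPM, against 8.82 TPM, in B-CPAP and at 5.59 TPM, against 4.36 TPM, in TPC-1. DNAJB11, which binds unfolded chains in the lumen, stood at 27.9 TPM, against 20.2 TPM, in B-CPAP and at 24.7 TPM, against 21.4 TPM, in TPC-1. The ratios were 1.41 (1.16 to 1.71) and 1.28 (0.936 to 1.77) for DNAJB9, and 1.38 (1.26 to 1.51) and 1.15 (1.04 to 1.28) for DNAJB11. Once adjusted for GC content, the differences were -0.0073 and 0.10 for DNAJB9, and 0.06 and 0.03 for DNAJB11.

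In the ER group the gap between the lines was widest for DNAJB14 and DNAJC10. DNAJC10, a disulfide reductase that serves ER-associated degradation, stood at 12.1 TPM, against 6.29 TPM, in B-CPAP and at 10.7 TPM, against 9.35 TPM, in TPC-1, with ratios of 1.92 (1.78 to 2.08) and 1.15 (1.06 to 1.24). DNAJB14, an ER membrane protein, stood at 4.13 TPM, against 1.51 TPM, in B-CPAP and at 3.36 TPM, against 3.17 TPM, in TPC-1. Its ratio of 2.74 (2.26 to 3.34) was the highest of the tested members in B-CPAP, while in TPC-1 it was 1.06 (0.886 to 1.27) and its sign turned under median centring, quantile normalization and GC adjustment. DNAJB14 has the lowest GC content of the tested members, 33.5%, and its log2 difference in B-CPAP was 1.03 before and 0.32 after the GC adjustment.

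The remaining ER members lay on both sides. DNAJB12, the nearest relative of DNAJB14, stood at 38.0 TPM, against 43.9 TPM, in B-CPAP and at 87.2 TPM, against 87.8 TPM, in TPC-1, and was the 1 ER member lower in both. DNAJC1 stood at 38.3 TPM, against 33.4 TPM, in B-CPAP and at 14.1 TPM, against 13.5 TPM, in TPC-1. DNAJC25 stood at 22.0 TPM, against 14.3 TPM, in B-CPAP and at 7.58 TPM, against 5.59 TPM, in TPC-1. Its ratios were 1.53 (1.31 to 1.80) and 1.36 (1.02 to 1.82). Of its exonic bases 13.8% overlap DNAJC25-GNG10 on the same strand, so its level, here and between the lines, is uncertain. DNAJC16 and DNAJC18 had ratios of 1.13 and 1.25 in B-CPAP and of 1.06 and 1.02 in TPC-1.

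Of the 6 mitochondrial members, 5 were lower at 40 °C in B-CPAP (40.1% of all genes were) and 3 in TPC-1 (42.5%), with medians of -0.15 and 0.0078; in TPC-1 the median was negative under median centring (-0.09), quantile normalization (-0.01) and GC adjustment (-0.07), and it was 0.06 without mitochondrially encoded genes. DNAJA3, the mitochondrial partner of HSPA9, stood at 60.7 TPM, against 71.6 TPM, in B-CPAP and at 36.4 TPM, against 36.6 TPM, in TPC-1. DNAJC11, a protein of the cristae-organising machinery, stood at 61.2 TPM, against 65.0 TPM, in B-CPAP and at 28.9 TPM, against 28.4 TPM, in TPC-1. DNAJC30, which binds the ATP synthase, stood at 40.0 TPM, against 46.5 TPM, in B-CPAP and at 14.3 TPM, against 14.5 TPM, in TPC-1. The ratios in B-CPAP were 0.848 (0.808 to 0.890), 0.942 (0.888 to 0.998) and 0.860 (0.777 to 0.951), and the intervals in TPC-1 all included 1.

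DNAJC4 was the mitochondrial member lower in both lines beyond counting error. It stood at 11.6 TPM, against 14.5 TPM, in B-CPAP and at 35.6 TPM, against 41.7 TPM, in TPC-1, with ratios of 0.796 (0.668 to 0.949) and 0.855 (0.764 to 0.955). It also has the highest GC content of the tested members, 60.5%, and 10.6% of its exonic bases overlap NUDT22 on the same strand. DNAJC15 and DNAJC19, both parts of the import motor at the inner membrane, have a GC content of 38.5% and 37.7%. DNAJC15 stood at 13.5 TPM, against 13.9 TPM, in B-CPAP and at 18.3 TPM, against 16.8 TPM, in TPC-1. DNAJC19 had ratios of 1.26 (1.09 to 1.45) and 1.07 (0.902 to 1.26); its processed pseudogene DNAJC19P5 was listed at 0.85 to 7.67 TPM, so some reads may be shared. The log2 difference of DNAJC15 in B-CPAP was -0.05, and -0.58 once adjusted for GC content; that of DNAJC19 was 0.31, and -0.26 once adjusted. In TPC-1 the adjusted values were -0.11 and -0.16.

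Of the members that serve vesicles, DNAJC5, the cysteine string protein of secretory vesicles, stood at 118 TPM, against 145 TPM, in B-CPAP and at 72.6 TPM, against 79.8 TPM, in TPC-1. Its ratios were 0.813 (0.781 to 0.846) and 0.910 (0.859 to 0.963). Its log2 differences of -0.30 and -0.13 were -0.11 and -0.07 once adjusted for GC content. They were negative under each of the 4 other scalings. DNAJC13, an endosomal protein, stood at 23.2 TPM, against 11.7 TPM, in B-CPAP and at 18.7 TPM, against 18.2 TPM, in TPC-1. Its ratio was 1.97 (1.81 to 2.15) in B-CPAP and 1.03 (0.941 to 1.12) in TPC-1, and its log2 difference in B-CPAP was 0.92 before and 0.49 after the GC adjustment, the largest adjusted value among the members. DNAJC6, the auxilin that strips clathrin coats, was lower in both lines with intervals that included 1. DNAJC14, an ER-associated protein not placed in a compartment here, stood at 26.3 TPM, against 23.6 TPM, in B-CPAP and at 24.5 TPM, against 24.8 TPM, in TPC-1. Of its exonic bases 21.95% overlap ORMDL2 and 12.9% TMEM198B on the opposite strand, and 23.2% AC023055.1 on the same strand. The level of DNAJC14 is therefore uncertain. DNAJC27, which joins a J domain to a small GTPase, had ratios of 1.09 (0.713 to 1.66) and 1.56 (1.11 to 2.21), from 47 to 88 reads.

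Members rich in A and T stood higher at 40 °C and members rich in G and C lower, and the same held over all genes. Across the 37 members, which share the 4 libraries, exon GC content and the log2 difference had a Spearman's rho of -0.81 in B-CPAP and -0.58 in TPC-1; over 11819 protein-coding genes rho was -0.81 and -0.59. Of the 21 members with a GC content up to 45%, 19 were higher at 40 °C in B-CPAP and 19 in TPC-1, with medians of 0.45 and 0.18. Protein-coding genes in the same range of GC content, 33.5 to 44.7%, had medians of 0.43 and 0.16. All 5 members between 45 and 50% were higher in both lines, with medians of 0.19 and 0.08, where protein-coding genes of that range had 0.13 and 0.03. Of the 11 members above 50%, 9 were lower in B-CPAP and 9 in TPC-1, with medians of -0.20 and -0.02, where protein-coding genes between 51.8 and 60.5% had -0.17 and -0.09. The members' median GC content was 43.2%, against 48.3% for all tested genes. After the adjustment rho was -0.19 and 0.11 across the members. What ties the difference to GC content was not tested.

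**Figure D3:**
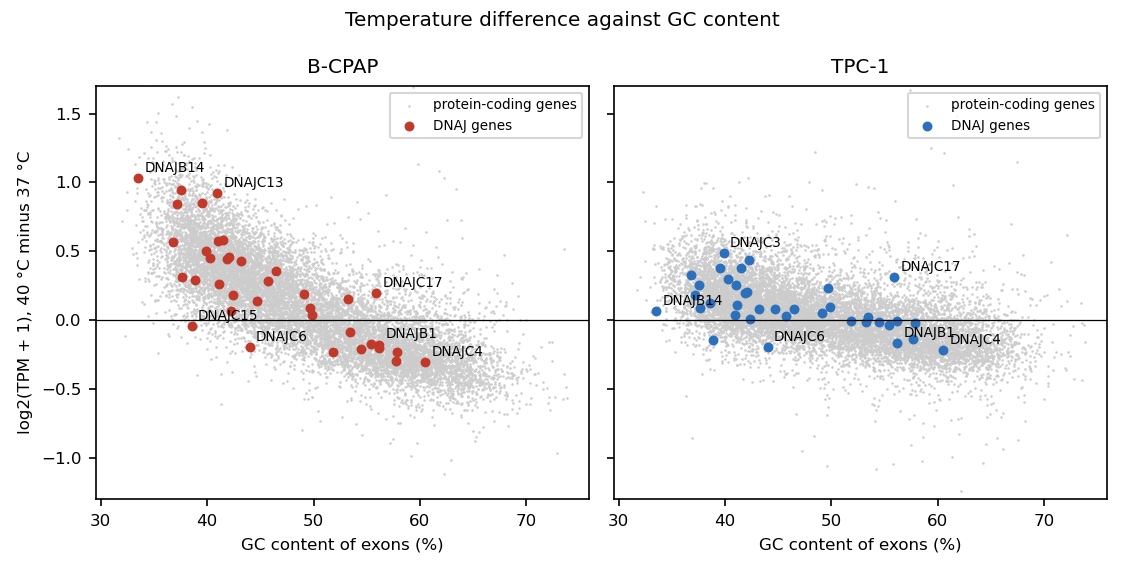
Difference in log2(TPM + 1), 40 °C minus 37 °C (y), against the GC content of a gene's exons (x) in B-CPAP and TPC-1; coloured points are the 37 tested DNAJ genes and grey points 11819 protein-coding genes, of which 3 in each panel lie outside the axis. The DNAJ genes fall with GC content along the grey cloud, with DNAJC15 low in it in B-CPAP and DNAJC17 high in it in both panels.

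Between the lines the differences were larger. Limma, with temperature as a block, called 19 of 37 members (62.7% of all genes were called), of which 15 were higher in B-CPAP (29.9% of all genes) and 4 lower (32.8%). Both B-CPAP libraries lay above both TPC-1 libraries for 16 members (35.8% of all genes) and below them for 8 (39.9%), and for 13 the lines overlapped. The median difference was 0.14 for the members and -0.05 for all tested genes. Of the 19 members, 17 were called under each of the 13 alternatives that kept all 4 libraries, and the exceptions were DNAJC12 and DNAJC24. The calls rested on having 2 libraries of each line. These are its libraries at 40 °C and 37 °C and not replicates. The p-values between the lines therefore hold no spread between cultures either. Fitted without the block and with any 1 library left out, fewer members were called, and fewest without either TPC-1 library. Without B-CPAP at 40 °C, the members called included DNAJB14 and DNAJC13, which are not among the 19. In these fits the lone library of a line is assumed to vary like the other line.

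DNAJC2 stood furthest apart, and its ratio of B-CPAP over TPC-1 was 7.85 at 40 °C (6.34 to 9.82) and 6.19 at 37 °C (4.76 to 8.05). Its limma difference of 2.32 ± 0.19 (SE) had an adjusted p of 0.00049, higher at 2 of 2 temperatures. Among the members higher in B-CPAP, DNAJC30 followed with 1.52 ± 0.12 (adjusted p = 0.00042), then DNAJC22, whose fly relative acts in endocytosis and which stood at 25.9 and 24.4 TPM in B-CPAP and at 10.2 and 8.49 TPM in TPC-1 at 40 °C and 37 °C (adjusted p = 0.00074). The ER members DNAJC25 (1.32 ± 0.14), DNAJC1 (1.31 ± 0.11) and DNAJB9 (0.95 ± 0.15), the mitochondrial members DNAJC11 (1.11 ± 0.10) and DNAJA3 (0.84 ± 0.11), and the cytosolic DNAJA1 (1.04 ± 0.09), DNAJB1 (0.83 ± 0.07), DNAJB2 and DNAJB6 were called higher too, with adjusted p-values of 0.00056 to 0.0070. DNAJC5 (0.78 ± 0.09) was also called higher, as were DNAJC24 and DNAJC12, a partner of the aromatic amino acid hydroxylases (adjusted p = 0.037 and 0.049). All 15 were higher in B-CPAP at both temperatures. Of DNAJC30's exonic bases 14.4% overlap BUD23 on the opposite strand and of DNAJC11's 27.9% overlap THAP3, and libraries of this kit keep no strand, so the level of both is uncertain.

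The 4 members lower in B-CPAP were DNAJC4 (-1.50 ± 0.11, adjusted p = 0.00039) and the ER members DNAJC16, DNAJB12 and DNAJC18. DNAJC16, an ER protein known to set the size of autophagosomes, stood at 4.44 and 3.94 TPM in B-CPAP and at 12.0 and 11.3 TPM in TPC-1 at 40 °C and 37 °C, a difference of -1.29 ± 0.15 (adjusted p = 0.0014). DNAJB12 differed by -1.08 ± 0.10 (adjusted p = 0.00070). DNAJC18 stood at 9.44 and 7.57 TPM in B-CPAP and at 16.1 and 15.7 TPM in TPC-1, a difference of -0.83 ± 0.14 (adjusted p = 0.0052). DNAJC15 had a difference of -0.34 ± 0.13 that did not pass (adjusted p = 0.068). Of the 10 ER members 3 were called higher and 3 lower, near the shares over all genes (29.9% and 32.8%).

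DNAJB14, DNAJC10 and DNAJC13 were among the members whose order between the lines differed with temperature. At 40 °C the ratio of B-CPAP over TPC-1 was 1.23 (1.05 to 1.45) for DNAJB14, 1.13 (1.05 to 1.21) for DNAJC10 and 1.24 (1.15 to 1.34) for DNAJC13. At 37 °C it was 0.475 (0.385 to 0.584), 0.673 (0.619 to 0.731) and 0.644 (0.588 to 0.706). The gap between the lines' differences is the residual of these fits and was not itself tested.

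**Figure D4:**
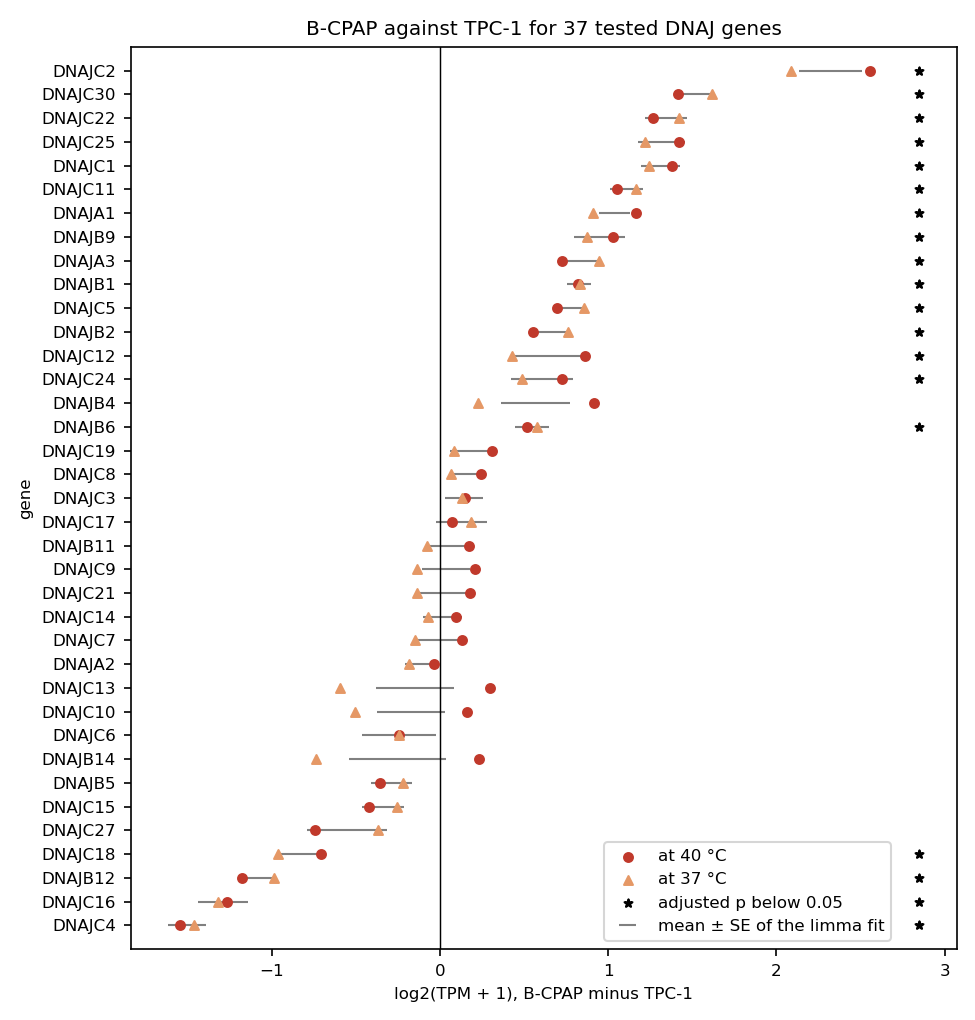
Difference in log2(TPM + 1), B-CPAP minus TPC-1 (x), for the 37 tested DNAJ genes (y, ordered by the mean difference), with circles at 40 °C, triangles at 37 °C, bars for the mean ± SE of the limma fit and stars for an adjusted p below 0.05. DNAJC2 lies furthest to the right and DNAJC4 furthest to the left, and the circle and triangle lie on opposite sides of 0 for several members, such as DNAJB14, DNAJC10 and DNAJC13.

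The members on chromosome 7, DNAJC2, DNAJC30, DNAJB9 and DNAJB6, were all called higher in B-CPAP (29.9% of all tested genes were). The share called among the genes of chromosome 7 alone was not taken. The median difference between the lines over 553 tested protein-coding genes of that chromosome was 0.68, against -0.06 over 11819 protein-coding genes. For chromosome 20, which holds DNAJC5, it was 0.51, and for chromosome 10 it was -0.41. Chromosome 10 holds DNAJB12, called lower, DNAJC1 and DNAJC12, called higher, and DNAJC9, not called. DNAJC11 on chromosome 1 and DNAJA1 and DNAJC25 on chromosome 9 were also called higher where the median of the chromosome was negative (-0.28 and -0.21). DNA copy number was not measured.

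The partners of the family, the HSP70 genes and the nucleotide exchange factors that reset them, were set beside it. The HSP70 list holds HSPA4, HSPA4L, HSPH1 and HYOU1, larger relatives of HSP70 that act as exchange factors. They are counted below with the HSP70 genes and not with the exchange factors. Of 16 HSP70 genes 12 were tested, and at 40 °C 10 were higher in B-CPAP (58.2% of all genes) and 8 in TPC-1 (54.3%), with medians of 0.26 and 0.07, or 0.03 and -0.08 once adjusted for GC content; limma called 0 of them between temperatures and found 5 with an unadjusted p under 0.05 (19.5% of all genes). The BiP gene HSPA5, the HSP70 served by the ER members, stood at 997 TPM, against 834 TPM, in B-CPAP and at 1080.4 TPM, against 984 TPM, in TPC-1. HSPA9, the mitochondrial HSP70, had ratios of 1.20 and 0.987, while 5 of the 6 mitochondrial DNAJ members had ratios below 1 in B-CPAP. This contrast in sign was absent after the GC adjustment. HSPA9 then differed by -0.07 in B-CPAP and -0.17 in TPC-1 on the log2 scale. The medians of the 6 mitochondrial members were then -0.17 and -0.07. The heat-inducible HSPA1B stood at 137 TPM, against 131 TPM, in B-CPAP and at 41.5 TPM, against 36.1 TPM, in TPC-1; its near-identical copy HSPA1A was at most 0.63 TPM, so how reads were split between the pair is uncertain. HSPA14, which pairs with DNAJC2, had ratios of 1.38 and 1.25. Of the 9 exchange factors, all tested, 5 were higher and 4 lower at 40 °C in B-CPAP and 5 higher and 4 lower in TPC-1, and limma called 0, with an unadjusted p under 0.05 for 3. Between the lines limma called 7 HSP70 genes higher in B-CPAP and 1 lower, and 3 exchange factors higher and 1 lower, where 29.9% of all genes were called higher and 32.8% lower. SEC63, an ER translocon protein with a J domain but another kind of symbol, had ratios of 1.75 (1.59 to 1.94) and 1.11 (1.03 to 1.21).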

How the data were processed

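FastQC and MultiQC, Trimmomatic 0.38 and featureCounts 2.0.0 are listed, with GRCh38, in the submitters' processing notes, which name no role for them. The aligner is not given in the sources used here, nor is the annotation release. Per the labels' protocols, libraries were made from RNeasy Plus RNA with TruSeq RNA Library Prep Kit v2, which keeps no strand. The deposited values are TPM, scaled by the authors for gene length and library total; the columns sum to 1000000. Of 58884 IDs, 99.5% were in GENCODE 29. Multiplying TPM by GENCODE exon length gave steps of whole reads (90.5 to 92.0% of values up to 20 reads within 0.02 of a whole), which gave depths and exact (Clopper-Pearson) 95% intervals of TPM ratios. Intervals cover counting error only.

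The 14912 genes at or above a mean of 1 TPM were fitted as log2(TPM + 1), so fold changes of low genes are understated, with limma 3.58.1 (R 4.3.3; intensity trend, two-sided, Benjamini-Hochberg over all genes, 1 residual degree of freedom, with the variance pooled over genes), and the fits were tested on simulated data. The labels name no separate cultures within a group. GC adjustment subtracted a lowess curve (span 0.3) of each library's deviations. Full values were given for 29 members chosen by level, by difference and by call. Members, lists and compartments were chosen with earlier results of these data known. The compartments come from general knowledge of the proteins and not from an annotation. Alternatives were pseudocounts of 0.1 and 5, filters, scalings, limma settings, no block and leaving out libraries. Protein sequences were not used here.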

Additional observations from a re-analysis of the deposited data

How the results depend on the processing

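The main limits are 1 library per group and 1 residual degree of freedom. The main fits pair the libraries by line or by temperature. No block by replicate could be fitted, since there is 1 library per group. For 40 °C against 37 °C, the members called higher were 0, and 2 at a mean TPM of at least 5 and 4 with protein-coding genes alone; all genes called were 0, against 867 and 1350 in those fits, 49 with median centring, 2 with a pseudocount of 5 and 2 with protein-coding genes adjusted for GC content, a choice made after seeing the data. Members 1.5-fold higher in B-CPAP numbered 5, but 8 with a pseudocount of 0.1, 9 without mitochondrially encoded genes, 1 at 2-fold and 0 with either GC adjustment. In TPC-1 they numbered 0, but 1 with a pseudocount of 0.1, with no filter or without mitochondrially encoded genes. With protein-coding genes adjusted for GC content, 1 member was 1.5-fold lower in B-CPAP, where the main count was 0. The median of the members in B-CPAP was 0.20, and 0.0125 with median centring, -0.0212 adjusted for GC content and -0.0020 in the protein-coding fit so adjusted. In TPC-1 it was 0.08, and -0.0123 with median centring and -0.0088 adjusted for GC content. The cause was not tested. The difference of DNAJB2 over both lines was -0.12, and 0.0058 and 0.032 with the 2 GC adjustments; that of DNAJB5 was -0.10, and 0.0092 in the protein-coding fit so adjusted.

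Leaving out 1 library, without the block, gave 1 to 9 members called higher in B-CPAP and 0 to 6 lower, and 2911 to 5719 genes in all. For temperature such fits mix in the difference between the lines, and named members turned sign. Their differences ran from -0.25 to 0.92 for DNAJA1, -0.60 to 0.35 for DNAJA3, -0.59 to 0.24 for DNAJB1, -0.51 to 0.26 for DNAJB2, -0.28 to 0.075 for DNAJB5, -0.67 to 1.89 for DNAJC2, -0.23 to 1.19 for DNAJC25, -1.03 to 0.51 for DNAJC4, -0.64 to 0.21 for DNAJC5.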
